A study of Mus musculus with 4 samples.

Results

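The piRNA pathway genes were examined for H3K36me3, the trimethylation of lysine 36 on histone H3, in chromatin of juvenile mouse testis germ cells. The set held 10 genes, chosen by name from the 37273 genes annotated in GENCODE vM1 on mouse build mm9: Piwil1, Piwil2, Piwil4, Mael, Tdrd1, Tdrd5, Tdrd6, Tdrd9, Ddx4 and Mov10l1. No measured value is part of that rule, although the members were proposed with earlier results of these data known. H3K36me3 was profiled by ChIP-seq at 14 dpp (days post partum) in B6 mice (C57BL/6J) and in KI mice (B6.Cg-Prdm9<tm1.1Kpgn>/Kpgn), in which exon 11 of Prdm9, the exon for the zinc fingers, was replaced by that of the CAST allele, Prdm9 Cst, on the same C57BL/6J background. In each strain 2 biological replicates were merged before peak calling against 1 input, which the labels give as 15 dpp, so each strain is represented by 1 list, no replicate error can be given and no test between strains was possible. Every strain difference below is therefore a difference between 2 lists.

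PIWI-interacting RNAs are small RNAs of the germ line that are bound by PIWI proteins and keep transposons silent. In the mouse testis they are used in waves. In fetal gonocytes MILI and MIWI2 serve the DNA methylation of transposons, and MIWI2 is the PIWI protein of the nucleus. In pachytene spermatocytes MIWI joins MILI and binds abundant piRNAs made from long precursors under the transcription factor A-MYB. Tudor-domain proteins and RNA helicases gather these proteins in the germ granules. H3K36me3 is placed along the bodies of transcribed genes by SETD2, which travels with RNA polymerase II, and is usually absent from the promoter itself; PRDM9 places it at recombination hotspots as well. The members were ordered by the textbook time of use: Piwil4, Tdrd9 and Mael for the fetal MIWI2 branch (Tdrd9 and Mael are also used later), Piwil2, Tdrd1, Tdrd5, Ddx4 and Mov10l1 as early genes that continue in use, and Piwil1 and Tdrd6 as pachytene genes.

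Of the 10 members, 8 lay within H3K36me3 over at least 50% of their length in both strains, and 7 over at least 90%. The exceptions were Piwil4, which codes for MIWI2 and was covered in short separate pieces to 33.7% in B6 and 24.7% in KI, and Tdrd6, a Tudor protein of the late germ granule, which had no region in B6 and was covered to 11.5% in KI. Coverage here is the share of the annotated gene that fell inside the broad (unrefined) enriched regions after overlapping regions had been joined. The median over the 10 members was 97.7% in B6 and 96.0% in KI. Over all 22367 protein-coding genes, 43.0% were covered to at least 50% in B6 and 41.2% in KI, and among the 11105 of 10 to 100 kb, the range of length that holds every member, these shares were 55.8% and 53.3%. The median over all protein-coding genes was 21.5% in B6 and 18.4% in KI. A share of cells carrying the mark and the amount of mark per cell cannot be told apart in such pooled chromatin.

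**Figure D1:**
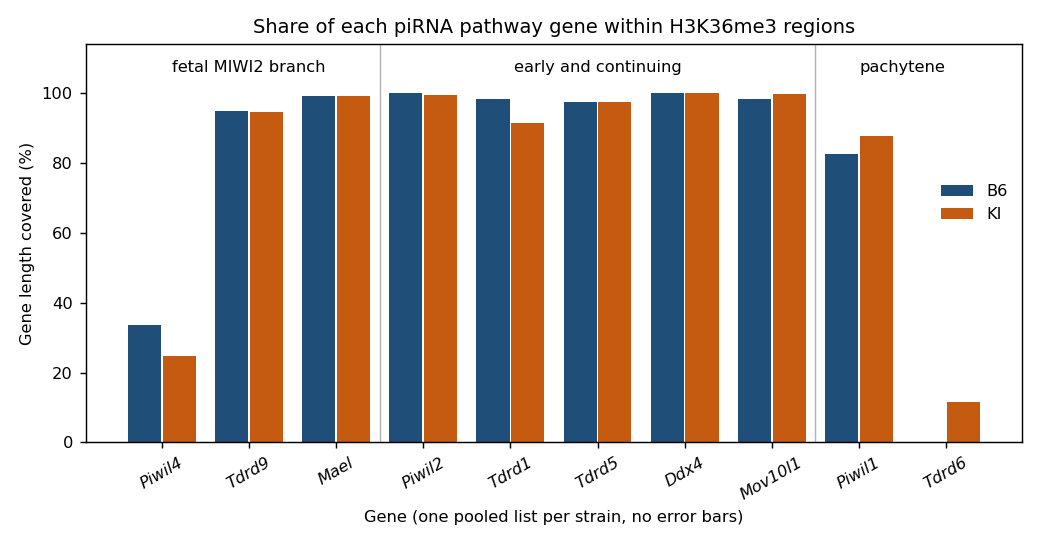
Share of each gene's length (%, vertical axis) inside broad H3K36me3 regions for the 10 piRNA pathway genes (horizontal axis) in B6 and KI, ordered by time of use; bars are single pooled lists without error. All bars except those of Piwil4 (33.7% and 24.7%) and Tdrd6 (0% and 11.5%) stand above 80%.

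The cells were checked by gene lists of testis cell types. All 8 spermatocyte genes, among them Sycp1 to Sycp3 and Dmc1, were covered to at least 50% in both strains, from Spo11 (82.4%) to Hormad1 (100%), with 94.9% of their summed length covered in B6 and 95.3% in KI. Of 6 spermatogonial genes, 5 in B6 and 4 in KI reached that level (summed coverage 52.0% and 40.9%). Zbtb16 (69.1% in B6, 37.2% in KI), Kit (87.7%, 72.4%) and Sohlh1 (93.7%, 70.2%) were lower in KI by 10 points or more, Dmrt1 was the highest (98.6%, 91.7%), and Gfra1 went the other way (0%, 5.9%). Of 6 genes of round spermatids, Prm1, Tnp1 and Tnp2 were at 0% in both strains, Prm2 was at 0% in B6 and 100% in KI, and Acrv1 at 100% and 21.3%, while Spaca1 reached 50% in both. The 6 Sertoli cell genes had a summed coverage of 38.4% in B6 and 6.9% in KI. In this order, Wt1 was at 71.7% and 8.5%, Sox9 at 45.2% and 0%, Amh at 42.0% and 0.3%, Clu at 29.7% and 0%, Gata4 at 19.6% and 8.2%, and Inha at 0% in both. Of the Leydig cell genes, Star was at 100% in both strains, Cyp11a1 at 0% and 1.5%, and Cyp17a1, Hsd3b1 and Insl3 at 0%. Of the myoid genes, Myh11 was at 15.9% and 9.2%, and Acta2 and Des at 0%. Some of these regions extend well beyond the gene. Star (6.84 kb) lay in a region of 54500 bp in B6 and 33500 bp in KI, and Acrv1 (5.62 kb) in one of 34000 bp in B6. The widest region that met Myh11 was 36500 bp in B6 and 35000 bp in KI, longer than the covered part of the gene. Coverage of such genes cannot be assigned to them alone. Over all protein-coding genes coverage was higher in B6 for 6937, higher in KI for 3880 and equal for 11550, although the KI list held more refined peaks (72692 against 58502) and came from more aligned reads; the broad regions spanned 445.9 Mb in B6 and 425.4 Mb in KI. The read depth behind a single region or peak is unknown, because the lists hold positions only.

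**Figure D2:**
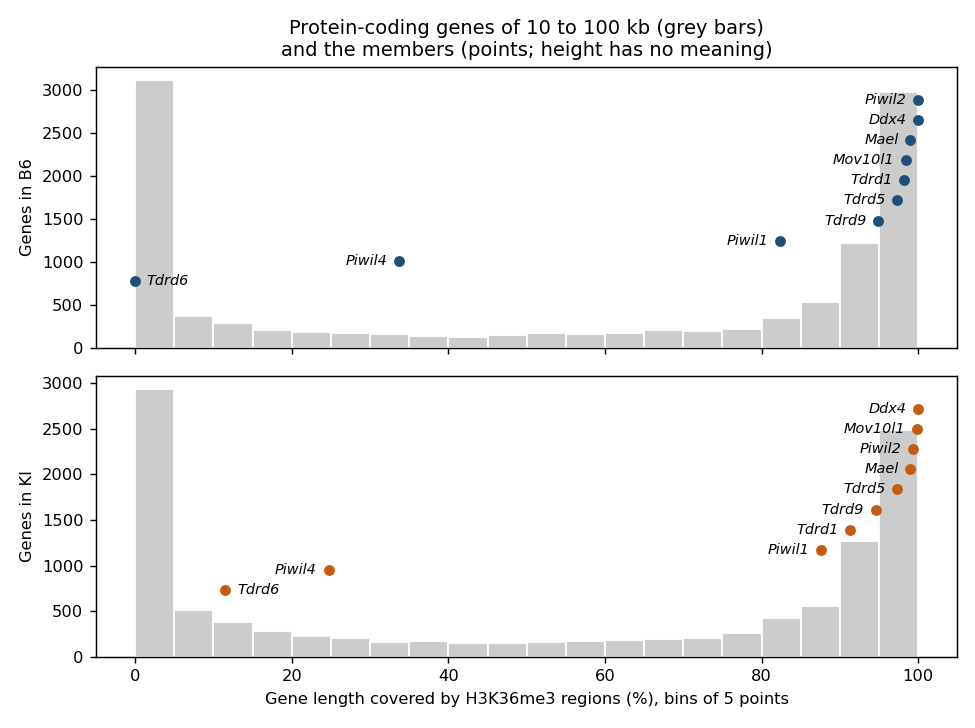
Coverage of the members (points, named) against all 11105 protein-coding genes of 10 to 100 kb (grey bars, number of genes per 5-point bin on the vertical axis), B6 above and KI below; the horizontal axis is the share of gene length covered (%). The lowest and the highest bin are the fullest, with 3115 and 2975 genes in B6 and 2935 and 2484 in KI, and Piwil4 lies between the ends in both strains.

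Piwil4 (ENSMUSG00000036912.11; mm9 chr9:14500674-14545177, minus strand, 44.5 kb) is the PIWI protein of the fetal gonocyte nucleus. In B6 it held 7 separate broad intervals of 2000 to 2500 bp, the first from 1.18 kb and the last ending 40.2 kb from the 5′ end. In KI it held 5 intervals of the same range of size, the first from 14.2 kb and the last ending at 39.2 kb. No region was thus called over the first 14.2 kb in KI. The last region ended 4327 bp (B6) and 5327 bp (KI) before the 3′ end of the gene span, but that end rests on 1 short transcript. The other 3 of the 4 annotated transcripts, the longest among them, end earlier, and the last region ran past the end of the longest by 1221 bp in B6 and 221 bp in KI. Of the gene, 11.2% was covered in both strains, which is 33.3% of the bases covered in B6 and 45.5% of those covered in KI. Over genes of 10 to 100 kb with coverage of 20% up to 50%, the median share also covered in the other strain was 59.2% in B6 (quartiles 30% and 85.7%) and 84.1% in KI (51.7% and 100%). Piwil4 thus lay within the quartiles in B6 and below the lower one in KI. The same genes had a median widest interval of 7.0 kb in B6 and 6.50 kb in KI, wider than any piece in Piwil4.

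Refined peaks are the narrower summits that the peak caller marks inside the broad regions. Piwil4 held 8 in B6 and 5 in KI, or 1.80 and 1.12 per 10 kb, where genes of the same length class covered to 20% up to 50% held 1.00 and 1.08. Of the 8 peaks in B6, 3 lay within a broad region of KI, and of the 5 in KI, 2 lay within one of B6. Of the refined peaks in genes of that class, 49.9% in B6 and 71.3% in KI met a broad region of the other strain. A refined peak of the other strain was met by 2 of the 8 and 2 of the 5 in Piwil4, against 18.2% and 21.0% in that class. The pairs overlapped, one near 22.3 kb by 324 bp and one near 26.2 kb by 27 bp. The sequence around the second pair, in an intron of Piwil4, is given as the narrowest overlap of refined peaks between the strains; capitals show the bases inside the peaks of both strains, and the strand is that of the gene (mm9 chr9:14518525-14518724).
Piwil4 shared peak, 26.2 kb: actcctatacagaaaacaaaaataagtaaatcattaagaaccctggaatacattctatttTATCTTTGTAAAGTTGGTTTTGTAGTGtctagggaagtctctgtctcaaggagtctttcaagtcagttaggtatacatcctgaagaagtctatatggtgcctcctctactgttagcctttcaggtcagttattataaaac

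The next pair of sequences is shown for contrast, from the middle of a peak that only B6 had, 1.75 kb into the gene (mm9 chr9:14543087-14543286), and of one that only KI had, at 33.9 kb (mm9 chr9:14511009-14511208). Both are intronic, read on the strand of the gene and written in lower case, since no base of them was in a peak of both strains.
Piwil4 peak in B6 alone, 1.75 kb: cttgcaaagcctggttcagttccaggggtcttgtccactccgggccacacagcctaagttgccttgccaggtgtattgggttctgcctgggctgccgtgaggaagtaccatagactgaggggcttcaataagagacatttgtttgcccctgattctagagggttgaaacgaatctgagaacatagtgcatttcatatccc
Piwil4 peak in KI alone, 33.9 kb: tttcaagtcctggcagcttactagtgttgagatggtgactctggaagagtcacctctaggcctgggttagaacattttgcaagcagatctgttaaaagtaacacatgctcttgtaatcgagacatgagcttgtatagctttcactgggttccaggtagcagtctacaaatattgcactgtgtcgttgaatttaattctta

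Both shared peaks lay inside Gm10706, a processed transcript on the opposite strand that spans 21.7 to 36.1 kb of Piwil4 and reached a coverage of 41.6% in B6 against 45.1% in KI. ChIP-seq carries no strand, and the regions of the pair of genes cannot be told apart. The neighbours of Piwil4 were also low: Fut4, upstream, was at 0% in both strains and Amotl1, downstream, at 21.7% and 16.2%. Piwil4 was 9.0 points lower in KI than in B6. Of the genes above, 5 of 6 of spermatogonia (all but Gfra1) and 5 of 6 of Sertoli cells (all but Inha) were also lower in KI, as were more protein-coding genes than were higher. The part of those cells in the Piwil4 values was not tested.

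**Figure D3:**
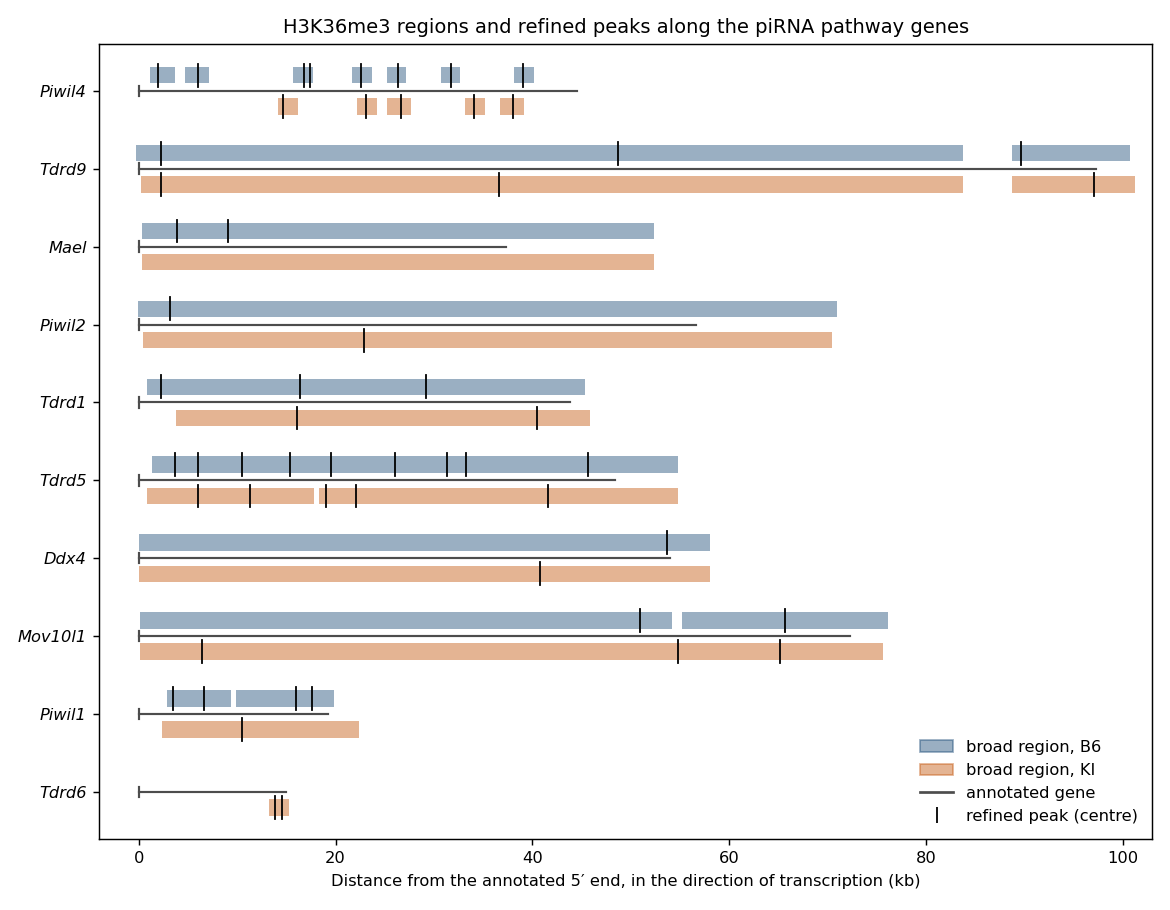
Broad H3K36me3 regions (blue above the gene line for B6, orange below it for KI) and centres of refined peaks (black ticks) along each member; the horizontal axis is the distance from the annotated 5′ end in kb, in the direction of transcription. Tdrd9, Mael, Piwil2, Tdrd1, Tdrd5, Ddx4 and Mov10l1 carry nearly gapless regions in both strains, Piwil1 lacks the mark over its first 2.38 kb or more, Piwil4 has 7 and 5 short pieces, and Tdrd6 has 1 piece at its 3′ end in KI.

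Tdrd9 (ENSMUSG00000054003.7; mm9 chr12:113209770-113307065, plus strand, 97.3 kb), a Tudor-domain helicase that works with MIWI2, reached a coverage of 94.9% in B6 against 94.6% in KI. The region began 269 bp before the annotated start in B6 and 231 bp after it in KI. In both strains the same 5000 bp, from 83.7 to 88.7 kb, were left out, and that hole made up nearly all of the uncovered length. Each strain had 3 refined peaks, of which 1 pair, about 2 kb into the first part of the gene, overlapped. The KI peak of 451 bp lay wholly within the B6 peak of 579 bp. Part of it is shown as the widest overlap in any member (mm9 chr12:113211781-113211980, plus strand), with capitals for the bases inside the peaks of both strains.
Tdrd9 shared peak, 1.98 kb: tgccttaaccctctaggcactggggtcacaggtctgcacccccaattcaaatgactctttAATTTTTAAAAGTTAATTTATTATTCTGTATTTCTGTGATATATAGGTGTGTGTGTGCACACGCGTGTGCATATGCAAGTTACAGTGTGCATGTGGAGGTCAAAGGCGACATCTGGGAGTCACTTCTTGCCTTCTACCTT

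BC048943, a gene on the opposite strand inside Tdrd9, was covered to 100% in both strains. Outside the gene, the mark ran 3435 bp past the 3′ end in B6 and 3935 bp in KI, and Aspg, the next protein-coding gene downstream, was at 0%.

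Mael (ENSMUSG00000040629.3; mm9 chr1:168131516-168168875, minus strand, 37.4 kb) codes for MAELSTROM, a granule protein needed for transposon silencing. A single interval of 52000 bp covered it in each strain, with the same edges in both, from 375 bp after the start to 15015 bp past the 3′ end. Coverage was 99.0% in B6 and in KI. No annotated gene lies in the 15015 bp past the end, and the next protein-coding gene, Gpa33, is 34.9 kb away and was at 0%. Among genes of 10 to 100 kb covered to at least 50%, the last region reached a median of 3553 bp past the 3′ end in B6, with quartiles of 1754 and 8108 bp, whereas the KI median was 3247 bp with quartiles of 1606 and 7327 bp. Mael thus lay beyond the upper quartile in both strains. It had 2 refined peaks in B6 and none in KI, the only member with this pattern.

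Among the 5 early genes, which serve MILI and the granules in which piRNAs are made, every one was covered to at least 91.3% in both strains. The median was 98.4% in B6 and 99.3% in KI. Piwil2 (ENSMUSG00000033644.4; mm9 chr14:70772287-70828901, minus strand, 56.6 kb), the gene for MILI, reached a coverage of 100% in B6 against 99.3% in KI. Its region began 99 bp before the start in B6 and 401 bp after it in KI, and ran 14286 and 13786 bp past the 3′ end, over nothing but the pseudogene Gm9174. Piwil2 and Mael were the members with the longest marked stretches beyond the gene. Piwil2 had 1 refined peak in each strain, and these were 19496 bp apart.

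Ddx4 (ENSMUSG00000021758.7; mm9 chr13:113388541-113442518, minus strand, 54.0 kb) codes for the VASA helicase, a defining protein of germ cells. A single interval of 58000 bp covered 53960 bp of the gene in each strain, leaving out only the first 18 bp and reaching 4040 bp past its end. The edges were the same in B6 and KI. Each strain had 1 refined peak, 12559 bp from that of the other. Slc38a9, upstream on the other strand, was covered to 96.5% and 95.8%, and Il31ra, downstream, to 9.5% and 4.3%.

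Mov10l1 (ENSMUSG00000015365.8; mm9 chr15:88813339-88885582, plus strand, 72.2 kb) codes for the helicase that feeds precursor RNA into piRNA biogenesis. It reached a coverage of 98.4% in B6 against 99.8% in KI, from 162 bp on in both. The difference between the strains was a hole of 1000 bp in B6, from 54.2 to 55.2 kb, within which KI had 1 of its 3 refined peaks (54.7 kb). B6 had 2 refined peaks, of which the one at 65.6 kb lay 351 bp from the nearest of KI. The downstream neighbour Panx2 was at 0% in B6 and 14.4% in KI.

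Tdrd1 (ENSMUSG00000025081.7; mm9 chr19:56900699-56944502, plus strand, 43.8 kb), whose protein is a Tudor scaffold for MILI, reached a coverage of 98.2% in B6 against 91.3% in KI. The region began 802 bp after the start in B6 and 3802 bp after it in KI, and the later start accounts for the whole difference of 6.8 points, since from there on the gene was covered without a gap in both. One of the 3 refined peaks of B6, at 2.02 kb, lay in the stretch that KI left out. An annotated transcript begins at 4503 bp, after the KI edge. Another B6 peak, at 16.3 kb, was 35 bp from a KI peak without overlapping it. KI had 2 refined peaks.

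Tdrd5 (ENSMUSG00000060985.8; mm9 chr1:158185426-158233795, minus strand, 48.4 kb) codes for a Tudor protein of the germ granules, although this annotation lists it as a lincRNA without a coding transcript. Coverage was 97.3% in each strain, with the first edge at 1295 bp in B6 and 795 bp in KI, and a hole of 500 bp near 17.8 kb in KI alone. The RefSeq start lies 316 bp after the annotated one. Tdrd5 had 9 refined peaks in B6, the most of any member, against 5 in KI, as many as Piwil4. This is 1.86 and 1.03 per 10 kb, below Piwil1 in B6 (2.08) and below Tdrd6 (1.34) and Piwil4 (1.12) in KI, and against 0.643 and 0.816 over protein-coding genes of 10 to 100 kb covered to at least 50%. One pair overlapped by 353 bp, the full width of the B6 peak. It is shown in part (mm9 chr1:158227801-158228000, strand of the gene) because it is the only pair in the early genes at which both strains had a refined peak in the same place; capitals mark the bases inside both.
Tdrd5 shared peak, 5.85 kb: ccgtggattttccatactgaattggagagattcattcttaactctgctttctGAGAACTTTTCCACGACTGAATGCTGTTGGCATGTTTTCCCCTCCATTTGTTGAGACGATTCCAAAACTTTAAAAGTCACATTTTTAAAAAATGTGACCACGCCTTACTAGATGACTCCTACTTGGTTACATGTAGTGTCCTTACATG

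Near 19.2 kb of Tdrd5 the KI peak ended at the base before the B6 peak began, so the peaks adjoined without sharing a base.

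The pachytene genes differed from each other. Piwil1 (ENSMUSG00000029423.6; mm9 chr5:129242121-129261349, plus strand, 19.2 kb), which codes for MIWI, reached a coverage of 82.4% in B6 against 87.6% in KI. In B6 it held intervals of 6500 and 10000 bp with a hole of 500 bp between them, and in KI a single interval of 20000 bp. Coverage began 2880 bp after the start in B6 and 2380 bp in KI, later than the upper quartile of marked genes of 10 to 100 kb in both strains (2040 and 2132 bp). It ran 651 bp past the 3′ end in B6 and 3151 bp in KI. B6 had 4 refined peaks there and KI had 1, none overlapping, and the neighbours Rimbp2 (5.2% and 2.3%) and Fzd10 (0% in both) were low.

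Tdrd6 (ENSMUSG00000040140.7; mm9 chr17:43752284-43767248, minus strand, 15.0 kb), whose protein builds the chromatoid body of late germ cells, had neither a broad region nor a refined peak in B6. In KI a single region of 2000 bp lay over its 3′ end, from 13.2 kb on, with 2 refined peaks. The first 13248 bp of the gene were unmarked in both strains. The upstream neighbour Slc25a27 was covered to 91.6% in both, whereas Pla2g7, which lies 3.13 kb beyond the 3′ end of Tdrd6, was at 31.7% in B6 and 9.1% in KI. The middle of the intronic KI peak at 13.7 kb is shown as the only intronic mark found in this gene (mm9 chr17:43753269-43753468, strand of the gene), in lower case because B6 had no peak there.
Tdrd6 peak in KI alone, 13.7 kb: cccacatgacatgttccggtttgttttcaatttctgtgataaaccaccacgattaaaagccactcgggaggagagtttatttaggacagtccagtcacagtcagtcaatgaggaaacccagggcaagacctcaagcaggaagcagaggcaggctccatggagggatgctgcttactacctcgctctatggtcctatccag

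By time of use, the median coverage was 94.9% in B6 and 94.6% in KI for the 3 fetal genes, with 2 of 3 covered to at least 50%. It was 98.4% and 99.3% for the 5 early genes, with 5 of 5. The pachytene genes gave 1 of 2 in each strain. The sparsely marked genes Piwil4 and Tdrd6 thus belong to the fetal and the pachytene use, and with so few genes no difference between times of use was tested. Summed over all members, 88.4% of the gene length was covered in B6 and 87.6% in KI.

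Only Tdrd6 differed between the strains by 10 points or more, with 11.5 points in favour of KI. Among all protein-coding genes 17.1% differed by that much, and among those of 10 to 100 kb 18.6%. Coverage was higher in B6 for Piwil4, Tdrd9, Piwil2 and Tdrd1, higher in KI for Mov10l1, Piwil1 and Tdrd6, and equal to the rounding used for Mael, Tdrd5 and Ddx4. For the 8 fully marked members the largest differences were the 6.8 points of Tdrd1 and the 5.2 points of Piwil1.

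The first covered base was a median of 375 bp from the 5′ end in B6 (9 genes with a region) and 598 bp in KI (10 genes). Taken to the start of the widest region, the KI median was 1390 bp. For the 8 members covered to at least 50% the medians were 268 bp in B6 and 388 bp in KI. Protein-coding genes of 10 to 100 kb covered to at least 50% had a median of 1076 bp in B6, with quartiles of 604 and 2040 bp, whereas the KI median was 1137 bp with quartiles of 618 and 2132 bp. Of the 8 members, 7 were covered to at least 90% in each strain, which itself limits how far from the 5′ end coverage can begin. No comparison with genes of like coverage was made. Region edges fall on a grid of 500 bp, so differences of one step between strains are at the resolution of the lists. The very first base was covered in 2 of the 8 marked members in B6, Tdrd9 and Piwil2, and in none of the 8 in KI; among all protein-coding genes covered to at least 50% this held for 11.4% and 11.6%. The last base was covered in all 8 marked members in both strains, against 93.3% of such genes in B6 and 92.3% in KI.

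**Figure D4:**
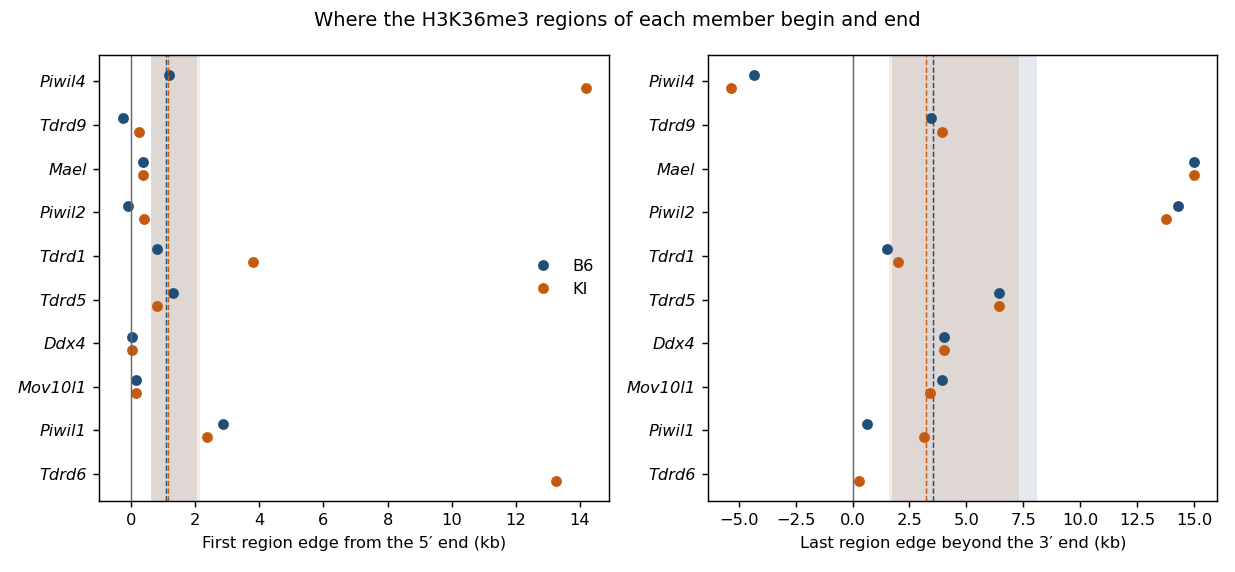
Position of the first region edge relative to the annotated 5′ end (left, kb) and of the last edge relative to the 3′ end (right, kb; positive values lie beyond the gene) for each member in B6 and KI. Shaded bands and dashed lines give the interquartile range and median of protein-coding genes of 10 to 100 kb covered to at least 50%. Mael and Piwil2 reach 13.8 to 15.0 kb beyond the gene, Piwil4 stops 4.33 and 5.33 kb short of the end of its span, which 1 short transcript sets, and Tdrd6 has no point for B6.

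Refined peaks were present in 9 of 10 members in each strain, Tdrd6 being without one in B6 and Mael in KI. Over all protein-coding genes 52.7% held one in B6 and 54.9% in KI, and over those of 10 to 100 kb 69.4% and 71.9%. No broad region was called in 25.4% of the latter in B6 and 23.5% in KI, against 1 and 0 of the 10 members. Since refined peaks are marked inside broad regions, the count of members with a peak largely follows from the presence of a region. The members together had 33 refined peaks for B6 against 23 for KI, while the whole KI list was the longer one. More peaks in B6 were not particular to the members. The 7 relatives outside the pathway, described below, had 44 against 34. The 19 further pathway genes had 52 against 51, and the 8 spermatocyte genes 14 against 16. Among the members, the largest differences were in Tdrd5 (9 against 5), Piwil4 (8 against 5) and Piwil1 (4 against 1). Mael and Tdrd1 also had more in B6, Mov10l1 and Tdrd6 had more in KI, and Tdrd9, Piwil2 and Ddx4 had as many in each. In each strain 4 of these met a refined peak of the other, in Piwil4, Tdrd9 and Tdrd5. Of all refined peaks in protein-coding genes, 19.0% in B6 and 15.9% in KI did so. A broad region of the other strain was met by 27 of the 33 peaks in B6 and 17 of the 23 in KI. Of all refined peaks in protein-coding genes, 62.6% and 80.8% met one. Without Piwil4 and Tdrd6 the counts were 24 of 25 and 15 of 16. The remaining 8 members are covered over most of their length in both strains, so these counts largely restate coverage. Over all 10 members, 14 of the 33 peaks in B6 and 7 of the 23 in KI touched an exon of their gene. Without Piwil4 and Tdrd6 this held for 10 of 25 and 4 of 16. The share for refined peaks in all protein-coding genes was 19.9% in B6 and 18.9% in KI.

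Downstream of the 8 members covered to at least 50%, the nearest protein-coding gene was below 15% in both strains in 7. Among them were Aspg, Gpa33, Fam163a and Vwa2, and Slc39a14 next to Piwil2 was the exception at 67.2%. The limit of 15% was not planned, and Panx2, next to Mov10l1, lies just below it at 14.4% in KI. The count is therefore only a description of these neighbours. Among all protein-coding genes of 10 to 100 kb covered to at least 50% in both strains, the share with such a downstream neighbour was 30.3%. Upstream neighbours were marked to at least 90% in both strains in 5 of the 8, against 34.0% of those genes, with A630007B06Rik beside Tdrd1 at 98.0% and Mlc1 beside Mov10l1 at 100% in both strains. Polr3d lies upstream of Piwil2 and was at 94.1%.

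The promoters were read as the 250 bases before each annotated start. They held 5 to 31 CpG dinucleotides, with a median of 15.5, against a median of 8 (interquartile range 3 to 18) over 22362 promoters. Ddx4 had the most, 31, and Piwil4 the fewest, 5, with 8 in Tdrd9. A MYB-type motif was searched on both strands as TAACTGNC, CAACTGNC, TAACGGNC and CAACGGNC, since A-MYB is known to act on pachytene piRNA genes. It was found in 2 of the 10 members, Piwil1 and Mov10l1, and in 6.39% of all promoters. The promoters of Piwil1 (mm9 chr5:129241871-129242120, plus strand) and Mov10l1 (mm9 chr15:88813089-88813338, plus strand) are shown with the match in capitals, and that of Tdrd6 (mm9 chr17:43767249-43767498, minus strand), the other pachytene gene, without a match. The match in Piwil1 begins 75 bases before the start and reads the motif on the opposite strand; that in Mov10l1 begins 133 bases before it.
Piwil1 promoter: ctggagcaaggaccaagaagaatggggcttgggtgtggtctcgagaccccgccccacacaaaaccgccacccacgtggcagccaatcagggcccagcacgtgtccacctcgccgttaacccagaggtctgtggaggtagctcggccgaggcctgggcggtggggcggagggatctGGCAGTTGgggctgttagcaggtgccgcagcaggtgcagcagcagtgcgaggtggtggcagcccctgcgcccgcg
Mov10l1 promoter: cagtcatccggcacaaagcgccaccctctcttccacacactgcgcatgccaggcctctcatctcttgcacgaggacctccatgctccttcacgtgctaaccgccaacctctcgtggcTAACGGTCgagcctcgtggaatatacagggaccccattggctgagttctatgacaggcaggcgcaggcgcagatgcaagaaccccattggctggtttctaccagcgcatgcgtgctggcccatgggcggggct
Tdrd6 promoter: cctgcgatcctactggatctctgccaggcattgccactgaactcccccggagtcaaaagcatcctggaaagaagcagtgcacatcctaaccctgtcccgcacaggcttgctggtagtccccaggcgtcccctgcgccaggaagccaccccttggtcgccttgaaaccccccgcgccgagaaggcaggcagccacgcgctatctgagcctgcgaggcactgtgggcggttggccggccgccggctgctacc

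A match is a description of the letters and not a binding site. Both genes with a match were marked to more than 82% in both strains, and so were 6 of the 8 without one.

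The other genes of the pathway gave a similar picture. Of 19 further genes, 17 were covered to at least 50% in both strains, with a median of 96.0% in B6 and 96.3% in KI. The share of all protein-coding genes at that level was 43.0% in B6 and 41.2% in KI. Some of the 19 are shorter than 10 kb or longer than 100 kb. The 17 included the piRNA trimmer Pnldc1 (98.3% in both) and its partner Tdrkh (100% and 98.5%), and Mybl1, the gene for A-MYB, at 93.0% and 85.4%. Fkbp6, a co-chaperone of PIWI loading, was the highest at 100% in both. The exceptions were Spocd1, a partner of MIWI2 in fetal DNA methylation, which was at 0% in both strains, and Morc1, a transposon silencing gene of the fetal germ line, at 48.8% in B6 and 24.0% in KI. Morc1 was also in many pieces, with 19 intervals and 32 refined peaks in B6 and 16 and 20 in KI, and it was the only gene of this list that differed by 10 points or more. Most of the spermatogonial and Sertoli cell genes were lower in KI as well, with Gfra1 and Inha as exceptions, and their part in the Morc1 value was not tested.

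**Figure D5:**
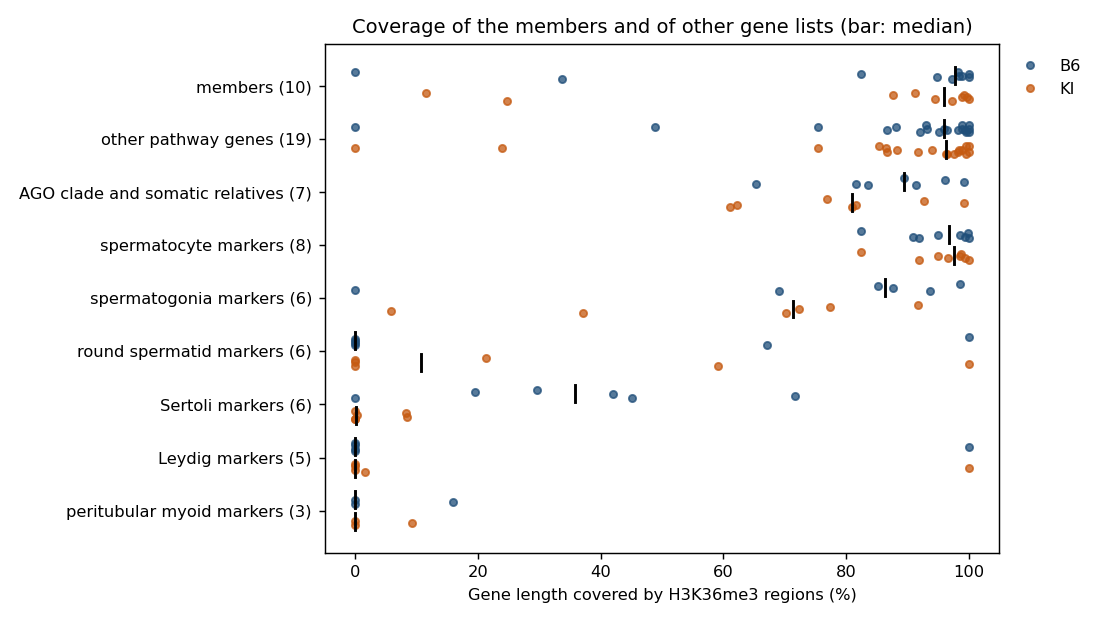
Coverage of single genes (points) and list medians (black bars) for the members, other pathway genes, AGO relatives and testis cell type genes in B6 and KI; the horizontal axis is the share of gene length covered (%), and the number of genes stands after each list name. The members, the other pathway genes and the spermatocyte genes lie mostly above 80% in both strains, and the Sertoli cell genes are at 0% to 71.7% in B6 and at most 8.5% in KI.

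The relatives of these genes outside the piRNA pathway were marked too. All 7, namely Ago1 to Ago4 (annotated as Eif2c1 to Eif2c4), Mov10, Tdrd3 and Ddx3x, were covered to at least 50% in both strains, with a median of 89.5% in B6 and 81.0% in KI. Over all protein-coding genes 43.0% in B6 and 41.2% in KI reached that level. Ago3 was the highest at 99.2% in both. In 3 of the 7 coverage was lower in KI by 10 points or more: Ago1 (91.4% and 81.0%), Mov10, the somatic relative of Mov10l1 (89.5% and 76.9%), and Tdrd3 (83.6% and 61.1%). Among all protein-coding genes 17.1% differed by that much in either direction. The PIWI genes ranged more widely than the AGO genes of the same superfamily, from 24.7% for Piwil4 in KI to 100% for Piwil2 in B6, while the AGO genes ranged from 62.3% for Ago2 in KI to 99.2% for Ago3.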

How the data were processed

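H3K36me3 ChIP-seq was made from MNase-fragmented chromatin of germ cells with a polyclonal antibody. According to the methods and the submitters' processing notes, the authors trimmed the reads, aligned them to mm9 with BWA (version 1.2.3 in the notes), kept unique alignments and called peaks with ZINBA on 2 merged replicates against 1 input (window 1000 bp, steps of 500 bp). The deposited lists give start and end positions only, without scores or read counts. They were used as deposited.

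For each strain, overlapping or adjoining broad regions were joined, and their overlap with GENCODE vM1 gene spans (mm9) was computed with Python 3.11.15, numpy 2.4.6 and pandas 2.3.3. A refined peak was assigned to a gene on an overlap of 1 bp. Covered lengths were checked with bedtools 2.31.1 and the interval code was tested on simulated data. Sequences were read from the mm9 reference. Promoters of RefSeq (GRCm38.p6) were placed in mm9 by sequence only, for 8 of 10 members. Figures were drawn with matplotlib 3.10.9.

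The members and gene lists were chosen with earlier results of these data known. All 10 members were named. Of the other lists, the text names genes below 50% in either strain, genes that differed by 10 points or more and the lowest and highest; of the neighbours, the nearest protein-coding gene on each side. Further genes were named after their values were seen, as examples of a list (Sycp1 to Sycp3, Dmc1, Spaca1, Pnldc1, Tdrkh, Mybl1). Ago4 and Ddx3x were named to give the whole list of relatives. Gm10706, BC048943 and Gm9174 were named because they overlap a member or the region that runs past it. Genes count as overlapping without regard to strand.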

Additional observations from a re-analysis of the deposited data

How the results depend on the processing

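Of 26 alternative values, 17 were the same as those reported or, for counts, within 1.5 times of them, 9 moved and none reversed. The span of the longest protein-coding transcript (for Tdrd5, the longest transcript) and a limit of 80% changed none of the counts or medians to which they were applied. Joining regions across gaps of up to 1000 bp moved the median coverage in KI to 96.5%, and Piwil4 remained below 50% in both strains. With refined peaks in place of broad regions the median coverage was 1.7% in B6 and 1.5% in KI, by construction, since refined peaks are narrow. With only refined peaks of 500 bp or wider, 5 members in B6 and 3 in KI still held one. Measured to the start of the widest region, the median distance from the 5′ end was 1390 bp in KI. Alternatives chosen after seeing the data gave 98.2% and 94.6% for the median coverage without Tdrd5 in B6 and KI, and 440 bp for the median distance in KI from RefSeq starts.

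No replicate was left out, since the replicates had been merged, and no paired analysis was possible because no result comes from a test and each strain has a single list. Depth behind a region is unknown, so a stretch without a region is one in which none was called.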

Other observations

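Besides Piwil4 and Morc1, Tdrd3 and the spermatogonial gene Zbtb16 held many refined peaks. Zbtb16 had 38 of them for B6 against 27 for KI, and Tdrd3 had 28 against 20. Both genes were picked after their values were seen.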
